A study of Mus musculus with 6 samples.

Results

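The genes described here encode the proteins of the cytosolic ribosome. They were taken from the named probe sets of an Affymetrix liver array study as every gene whose symbol begins with Rpl or Rps followed by a digit, together with Rpsa, Rplp0, Rplp1 and Rplp2, leaving out the Rps6k kinases and symbols that contain -ps. This gave 76 genes of 18820 measured in all, 47 with an Rpl symbol (large subunit) and 29 with an Rps symbol (small subunit). Livers came from mice of 2 months with the Pcyt2+/- genotype (4 mice, replicates 1 to 4) and from wild type mice of the same age (2 mice, replicates 3 and 4), all on the C57BL6 background. Pcyt2 makes CDP-ethanolamine for phosphatidylethanolamine synthesis. In the titles the Pcyt2+/- mice are named knock-out, and the genotype given for them is followed here. The construction of the allele, sex and feeding state are not given in the sources used here. Precision is limited by the small number of arrays.

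The ribosome translates every cytosolic mRNA, and its proteins are made in matched amounts from genes scattered over the genome. Their mRNAs typically begin with a run of pyrimidines at the 5′ end, the terminal oligopyrimidine tract, through which the mTORC1 kinase pathway and the RNA-binding protein Larp1 set how much of them is translated. In hepatocytes, which secrete large amounts of plasma protein, these mRNAs are among the most abundant, and for that reason the genes are often used as a reference for the overall level of signal on an array.

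The label was checked against the measured genes. The symbol rule also took in 2 genes that do not encode ribosomal proteins, Rps19bp1, a regulator of the deacetylase SIRT1, and Rps23rg1, a retroposed gene derived from Rps23. A copy of Rps4x, Rps4l, is listed as a transcribed pseudogene. Of 89 protein-coding symbols that fit the rule in RefSeq, 75 were among the genes measured here. The symbols Rpl22l1, Rpl32, Rpl36al, Rpl37a and Rps16 stood only in probe sets that carry several symbols, and were left out. The others were not analysed here.

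The sequence around the annotated start was not used in the choice by symbol. RefSeq (GRCm38.p6) gave a start for 62 of the 76 genes. A run of at least 8 C or T bases on the sense strand, within 15 bases on either side of the start, was found for 25 of the 62 (40.3%), against 3205 of all 27025 genes with a start (11.9%) and 9 of 69 mitochondrial ribosomal protein genes. The first start listed for each gene was used, and a match describes letters only. The windows below show genes to which the values return, with the longest pyrimidine run in capitals and the start between the 15th and 16th base. Rps18, Rpl13a, Rpl38 and Rps27 had lower means in Pcyt2+/- at an unadjusted p under 0.05 (limma, described below), and so had Rpl5 and Rps28. Rps6 and Rplp2 are shown for their runs across the start, and Rpl5, Rps28 and Rpl39 for a shorter run or one away from the start. A run of at least 8 was found for 7 of 14 members that were lower by that p and for 18 of 48 other members. Whether these shares differ was not tested.
Rps18 (chr17:33955651-33955680, minus strand): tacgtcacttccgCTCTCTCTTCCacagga
Rpl13a (chr7:45128731-45128760, minus strand): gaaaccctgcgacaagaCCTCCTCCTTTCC
Rpl38 (chr11:114668565-114668594, plus strand): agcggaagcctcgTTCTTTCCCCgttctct
Rps27 (chr3:90213634-90213663, minus strand): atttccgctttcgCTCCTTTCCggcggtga
Rps6 (chr4:86857353-86857382, minus strand): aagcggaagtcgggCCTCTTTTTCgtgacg
Rplp2 (chr7:141447636-141447665, plus strand): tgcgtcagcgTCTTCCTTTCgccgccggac
Rpl5 (chr5:107900513-107900542, plus strand): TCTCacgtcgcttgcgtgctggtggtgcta
Rps28 (chr17:33824548-33824577, minus strand): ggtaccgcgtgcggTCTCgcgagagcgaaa
Rpl39 (chrX:37085208-37085237, minus strand): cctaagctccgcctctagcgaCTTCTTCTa

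Each probe set has a log2 signal on each array, which the authors obtained by RMA, and differences are Pcyt2+/- minus wild type on that scale. Where a gene had several probe sets, the one with the highest mean over the 6 arrays stood for it. The signal of a probe set depends on its probes as well as on the mRNA, so levels are compared between arrays and not between genes. As a check of the labels, Pcyt2 itself read 4.64 ± 0.028 (SD, n = 4) in Pcyt2+/- and 4.84 ± 0.064 (SD, n = 2) in wild type, with every Pcyt2+/- array below both wild type arrays. With limma over all genes its difference of -0.20 missed the threshold (adjusted p = 0.264), and the two-sided exact permutation test gave 0.0667, the smallest that 4 against 2 arrays allow. Among the 9 measured hepatocyte markers all had a mean above 5, and all 9 had a lower mean in Pcyt2+/-. Of all 792 genes with a mean above 5, 62.2% had a lower mean. The marker differences were uneven, from -1.13 to -0.022 with a median of -0.098. The summed linear signal of the markers was 15999 to 17425 against 17329 to 18523. Markers of Kupffer, endothelial, bile duct, T and NK, B, neutrophil and red cells all lay at a mean of 5 or less, and 1 of the 9 stellate cell markers lay above it. In bulk liver, fewer cells of a type cannot be told apart from less RNA of single marker genes per cell. The part of these markers in the results below was not tested.

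One array stood apart for these genes. For 32 of the 76 genes the lowest of the 6 values came from Pcyt2+/- replicate 3 (42.1%). Among the 36 genes with a mean above 5 it was the lowest for 21 (58.3%), with a median deviation of -0.048 from the gene's mean over all arrays, and among the 40 dimmer genes it was the lowest for 11 (27.5%), with a median deviation of -0.00041. No other array was the lowest more often in either set. The same array was the lowest for 316 of the 756 other genes with a mean above 5 (41.8%), with a median deviation of -0.055, and for 16.4% of the other dim genes. The low values were therefore not limited to the ribosomal protein genes. At the other end, wild type replicate 4 was the highest array for 17 of the 36 brighter members (47.2%), against 201 of the 756 other bright genes (26.6%).

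**Figure D1:**
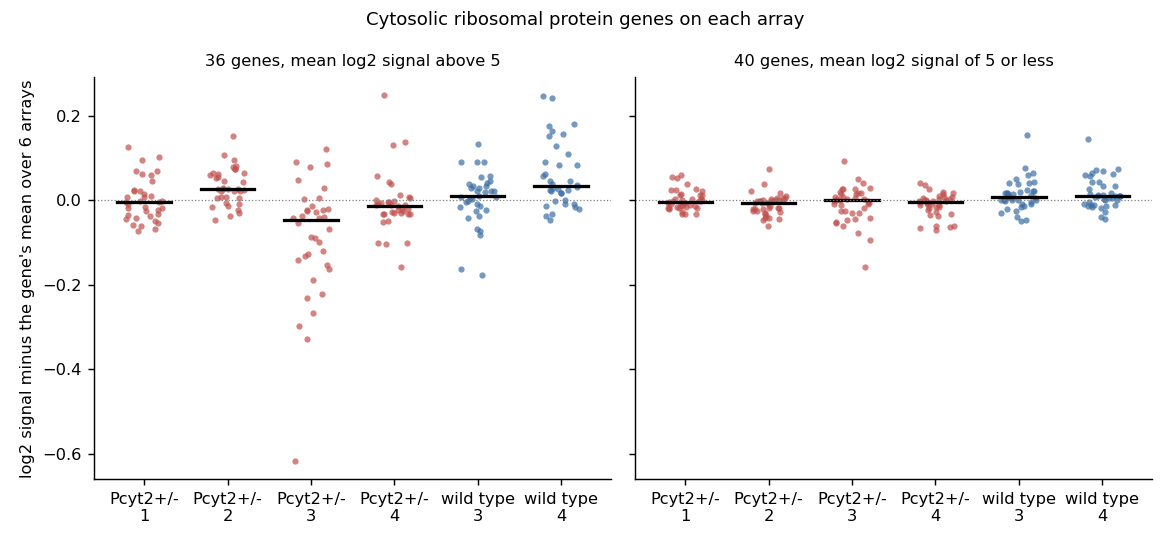
Each point is 1 ribosomal protein gene, plotted as its log2 signal on an array minus its mean over the 6 arrays; black bars are medians, red marks Pcyt2+/- and blue wild type. Among the 36 brighter genes the array of Pcyt2+/- replicate 3 has the lowest median (-0.048) and wild type replicate 4 the highest (0.034), while the medians of the 40 dimmer genes lie between -0.0074 and 0.0092.

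The comparison of genotypes asks whether the ribosomal protein genes differ between Pcyt2+/- and wild type liver. No member passed the test over all genes. Of the 76, 57 had a lower mean in Pcyt2+/- (75.0%), against 51.7% of all genes; means within 1e-06 of each other (113 genes, no member) were counted on neither side. On the deposited log2 scale the differences were small. The median was -0.021, where that of all genes was -0.00073, and the members ran from -0.19 to 0.10. Without Pcyt2+/- replicate 3 their median was -0.013, with 52 of 76 lower (52.6% of all genes). An absolute difference under 0.05 was seen for 53 of the 76, and one of at least 0.1 for 9, of which 8 were lower (1.77% of all genes reached that size). The largest, that of Rpl13a, corresponds to a signal 1.14 times as high in wild type. Pcyt2 itself differed by -0.20 on this scale. These sizes describe signal, and how they relate to mRNA was not tested. With the array median subtracted as a floor on the linear scale, 60 members with a mean above 4.6 had a median of -0.065. That of all 3248 genes entered was -0.030. For the 24 dimmer members it was -0.096, against -0.027 for the dimmer genes.

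Limma called 0 of the 76 genes at an adjusted p under 0.05 (0% of all genes were called), with adjusted p from 0.487 to 0.998. An unadjusted p under 0.05 was found for 17 members on the lower side and 0 on the higher side, 22.4% of the 76 on the lower side, where 3.44% of all genes were lower and 1.86% higher by that rule. The group ranges did not overlap for 16 members with lower values and 1 with higher values in Pcyt2+/- (7.17% and 5.67% of all genes). On the deposited log2 scale, a 95% interval within 0.25 of 0 was found for 65 of the 76 genes. It lay within 0.5 for 75, the exception being Rpl28.

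As deposited, bright genes had lower means in Pcyt2+/- more often than dim ones, among the members and among all genes, a pattern that depended on the scaling. Of the 36 members with a mean above 5, 29 had a lower mean (80.6%), and 7 had an unadjusted p under 0.05 on the lower side and 0 on the higher side. Of all 792 genes with a mean above 5, 62.2% had a lower mean, 14.6% such a p on the lower side and 5.56% on the higher side. The median difference was -0.035 for the 36 and -0.020 for the 792. Of the 40 dimmer members, 28 had a lower mean (70.0%) and 10 an unadjusted p under 0.05, against 51.3% and 2.95% of the 18028 dimmer genes, and their median was -0.013. Without Pcyt2+/- replicate 3 the bright members with a lower mean numbered 22 of 36 (median -0.021), and 54.4% of all bright genes had a lower mean. The dimmer members then numbered 30 of 40 (median -0.013). Without wild type replicate 4, 23 of the 36 bright members had a lower mean (median -0.019), against 56.2% of all 792 bright genes (median -0.012). After quantile normalization over all probe sets 22 of the 36 (median -0.0099) and 49.4% of the 792 bright genes had a lower mean. Over the gene rows alone these were 11 of the 36 (median 0.025) and 42.4% of the 792. This normalization gives every array the same distribution of signal, so a shift shared by bright genes is largely removed whatever its source.

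**Figure D2:**
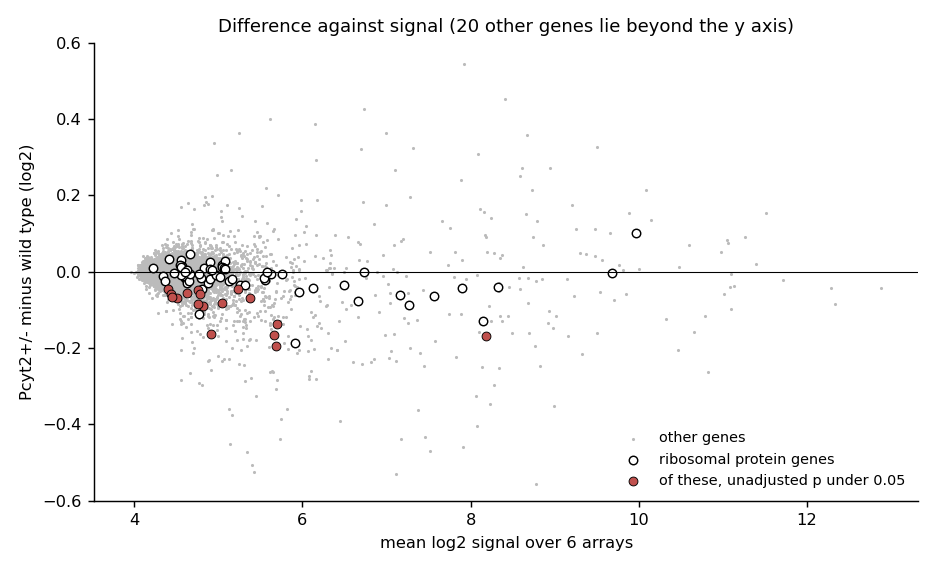
The difference between Pcyt2+/- and wild type (y axis, log2) is plotted against the mean log2 signal over 6 arrays (x axis); grey points are other genes, open circles ribosomal protein genes and red circles the 17 of them with an unadjusted p under 0.05. All 17 red circles lie below 0, at -0.045 to -0.19, inside the spread of the other genes, of which 20 lie beyond the y axis at 0.6.

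The lean toward lower values was weaker or absent after quantile normalization. With median centring it remained, with 56 of 76 lower (73.7%, against 47.8% of all genes). Quantile normalization removes a shift shared by bright genes whatever its source. It therefore cannot tell an effect of scaling from a difference in mRNA, and the source of the lean was not tested. After quantile normalization over all probe sets, 46 of the 76 had a lower mean (60.5%, against 50.8% of all genes), with a median of -0.0087. An unadjusted p under 0.05 was then found for 10 lower members (2.87% of all genes) and 2 higher members. All 17 genes named by the unadjusted p stayed on the lower side, and 10 of them kept a p under 0.05. With the same normalization run over the 18820 gene rows alone, a setting chosen after seeing the data, 35 of 76 had a lower mean (46.1%, against 48.5% of all genes) and the median was 0.0045. The unadjusted p was then under 0.05 for 7 lower and 4 higher members (2.61% and 2.67% of all genes). Leaving out wild type replicate 4 left 51 of 76 with a lower mean (54.9% of all genes). By the unadjusted p 8 were then lower, 7 of them among the 17, and 3 higher (4.56% and 1.87% of all genes). The 2 wild type arrays also differed from each other. The median absolute difference between them was 0.038 over the 76 genes, that between the groups 0.029, and for 44 genes the wild type arrays lay further apart than the group means. A difference between 2 single arrays varies more than one between group means, so these values cannot decide whether the groups differ.

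The members with the smallest p on the lower side came from both subunits. Rps20, a protein of the small subunit head, had log2 values of 4.876, 4.888, 4.814 and 4.839 in the 4 Pcyt2+/- livers, listed here and later from replicate 1 to 4, against 5.064 and 4.973 in wild type (replicate 3, then 4). Every Pcyt2+/- array lay below both wild type arrays. Pcyt2+/- averaged 4.85 ± 0.034 (SD, n = 4), wild type 5.02 ± 0.065 (SD, n = 2), and the 95% interval of the difference (-0.16) was -0.24 to -0.092 (limma adjusted p = 0.487). Rps28, a small subunit protein near the mRNA exit, read 4.785, 4.806, 4.812 and 4.752 against 4.879 and 4.876. Again the groups did not overlap. Its difference was -0.089 with an interval of -0.13 to -0.046 (limma adjusted p = 0.511).

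Rpl5 binds the 5S ribosomal RNA together with Rpl11, and both proteins can restrain Mdm2 when ribosome assembly is disturbed. Rpl5 read 4.492, 4.485, 4.479 and 4.495 in Pcyt2+/- and 4.532 and 4.581 in wild type, a difference of -0.069 (interval -0.10 to -0.033; limma adjusted p = 0.593). The 4 Pcyt2+/- values lay below both wild type values. The mean of Rpl5 over the 6 arrays, 4.51, lay close to the array median of 4.41, and spreads were smaller among dim genes. The median SD of the Pcyt2+/- arrays was 0.024 for the dimmer members and 0.061 for the brighter ones. Rpl11, its partner, averaged 4.83 ± 0.0087 in Pcyt2+/- (SD, n = 4) and 4.82 ± 0.0062 in wild type (SD, n = 2). Its groups overlapped and the difference was 0.0093 (interval -0.015 to 0.034). Whether the pair differed from each other was not tested.

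Rps18, another protein of the small subunit head, read 5.321, 5.375, 5.347 and 5.349 in Pcyt2+/- and 5.404 and 5.428 in wild type. The groups did not overlap, and the difference was -0.068 (interval -0.11 to -0.029; limma adjusted p = 0.652). Rps23, which sits at the decoding centre, read 4.746, 4.727, 4.731 and 4.756 against 4.795 and 4.783. Here too each Pcyt2+/- value was below both wild type values, with a difference of -0.049 (interval -0.078 to -0.020; limma adjusted p = 0.662). The other 12 members with an unadjusted p under 0.05 were Rpl37, Rpl13a, Rpl38, Rps7, Rps27, Rpl10a, Rpl30, Rps3, Rpl31, Rpl34, Rpl14 and Rplp1, named after their values were seen. Their differences ran from -0.045 (Rpl30) to -0.19 (Rpl13a). For Rpl13a, which also has a role in silencing of inflammatory mRNAs, the difference was -0.084 without wild type replicate 4, and for Rpl38 it went from -0.14 to -0.048. All 17 kept their sign in each fit that left out 1 array. For the 12 of them whose ranges did not overlap this was fixed in advance, and all 17 were picked by p from these same arrays.

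**Figure D3:**
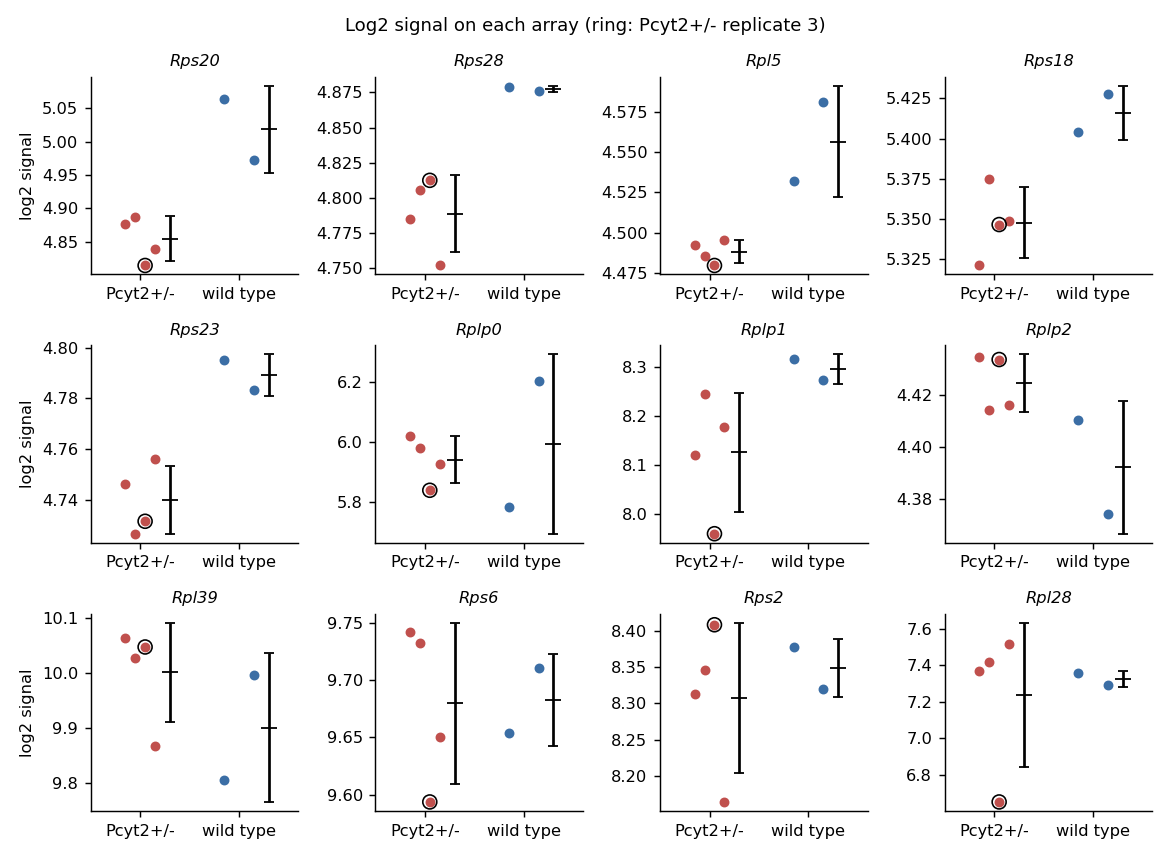
Log2 signal (y axis) of 12 ribosomal protein genes on each array, Pcyt2+/- in red and wild type in blue, with group means and SD in black and a ring around Pcyt2+/- replicate 3. The upper row, Rps23, Rplp1 and Rplp2 show groups that do not overlap; Rplp0 shows wild type arrays at 5.780 and 6.206 with all Pcyt2+/- arrays between them, and Rpl28 shows replicate 3 at 6.649 below all others.

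Higher means in Pcyt2+/- were seen for 19 members, none with an unadjusted p under 0.05. Rplp2 had the smallest p among them and the only ranges that did not overlap on this side, with 4.435, 4.414, 4.434 and 4.416 against 4.410 and 4.374. The difference was 0.032 (interval -0.00042 to 0.065; limma adjusted p = 0.936), and 0.014 without wild type replicate 4. Its mean of 4.41 lay close to the array median. Rpl39, which lines the exit tunnel of the large subunit, read 10.062, 10.027, 10.047 and 9.867 against 9.805 and 9.996. The groups overlapped, with Pcyt2+/- replicate 4 between both wild type arrays, and the difference of 0.10 went down to 0.0049 without wild type replicate 3. Rpl35a had a difference of 0.029, Rpl32l, a copy of Rpl32, 0.047, and Rps21 0.016.

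The proteins of the stalk, which recruits elongation factors to the ribosome, did not share a direction. Rplp0, the stalk base, read 6.019, 5.980, 5.838 and 5.927 in Pcyt2+/-, and 5.780 and 6.206 in wild type. The wild type arrays enclosed all Pcyt2+/- values, and the difference of -0.052 (interval -0.31 to 0.21) became 0.16 without wild type replicate 4. Rplp1 read 8.121, 8.244, 7.960 and 8.178 against 8.316 and 8.273. All 4 lay below wild type, with a difference of -0.17 (interval -0.34 to -0.00043; limma adjusted p = 0.936) that was -0.11 without Pcyt2+/- replicate 3. Rplp2, the partner of Rplp1 in the stalk, lay on the higher side. Rpsa, a small subunit protein that also serves as a laminin receptor, averaged 4.97 ± 0.015 in Pcyt2+/- (SD, n = 4) and 4.98 ± 0.024 in wild type (SD, n = 2), which differ by -0.0085 (interval -0.043 to 0.026).

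Rps6, the substrate of the S6 kinases downstream of mTORC1, read 9.742, 9.732, 9.594 and 9.650 in Pcyt2+/- and 9.654 and 9.711 in wild type. The groups overlapped over their whole range, with a difference of -0.0029 (interval -0.11 to 0.10). The sign of that value turned with quantile normalization (0.065) and without Pcyt2+/- replicate 3 (0.026). Rps2, a small subunit protein of the mRNA entry site, read 8.312, 8.346, 8.408 and 8.164 against 8.377 and 8.320. Pcyt2+/- arrays were both the highest and the lowest of the 6, and the difference was -0.041 (interval -0.19 to 0.11). Rpl28 showed the widest spread of the 76, chosen for this after its values were seen. It read 7.369, 7.420, 6.649 and 7.516 against 7.357 and 7.293, an SD of 0.40 (n = 4) that came from replicate 3, and its difference of -0.087 became 0.11 without that array.

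For 6 genes a copy with its own symbol was also measured. Some of these copies are known from other tissues, such as Rpl3l from muscle and Rpl10l and Rpl39l from testis. The probe sets of those 3 had a mean below the array median of 4.41, and their differences were -0.010, -0.024 and 0.011. The genes they derive from had 0.028 (Rpl3), -0.13 (Rpl10) and 0.10 (Rpl39). For Rpl10 the ranges did not overlap, with 8.168, 8.199, 7.876 and 8.156 against 8.232 and 8.227, and without Pcyt2+/- replicate 3 the difference was -0.055. Rps27 had -0.055 and its p53-responsive copy Rps27l -0.11 (interval -0.26 to 0.041). Without wild type replicate 3 Rps27 had -0.028, and without wild type replicate 4 Rps27l had -0.038. Rpl7 had -0.0046, Rpl7l1, which takes part in ribosome assembly, -0.025, Rps4x 0.0034 and Rps4l -0.0056. The latter 4, Rpl3, Rpl3l and Rpl39l changed sign in at least 1 fit without an array. Outside the ribosome, Rps19bp1 had 0.0063 and Rps23rg1 -0.012. Without both genes, a setting chosen after seeing the data, 56 of 74 members had a lower mean and 17 an unadjusted p under 0.05 on the lower side.

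Most of these genes were represented by several probe sets, which gives a view of how far a member's value rests on the one chosen. The 76 genes held 387 single-symbol probe sets. Only 20 genes had 1, and 22 had more than 5, with 41 for Rpl21, 24 for Rpl29, 18 for Rps2 and 17 each for Rpl17 and Rpl7a. Processed copies of ribosomal protein genes are frequent in the mouse genome, and probe sets for near-identical copies cannot be told apart from those of the gene, so each value is uncertain in its source. Probe sets of a gene can share probes: 14 of them, in 5 genes, had the same 6 values as another of the same gene. They are not independent replicates.

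Of the 387 probe sets, 285 had a lower mean in Pcyt2+/- (73.6%), 100 a higher and 2 an equal one, with a median of -0.016. In a fit of all deposited rows together, the unadjusted p was under 0.05 for 41 on the lower side and 2 on the higher side. None passed limma's adjusted p. In that fit 51.7% of the 18820 rows that stand for a gene had a lower mean. By the unadjusted p 611 of them were lower (3.25%) and 328 higher. Genes with many probe sets, such as Rpl21, weigh most in the counts over probe sets. Within a gene the signal ranged by a median of 0.34 over the 56 genes with several probe sets. The widest ranges were 5.08 to 8.18 over the 3 probe sets of Rplp1, 4.25 to 7.16 over the 8 of Rpl12 and 5.34 to 7.56 over the 41 of Rpl21. The range was above 1 for 9 of 56 genes. The direction was shared within many of these genes but not all. All probe sets were lower for 27 of the 56 genes, all higher for 4, and on both sides of 0 for 23. For the other 2 genes, Rpl6 and Rps2, 1 probe set had equal means and the rest were lower.

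The probe sets of Rpl38 differed by -0.14 to -0.12, all 4 with an unadjusted p under 0.05, and those of Rps18 by -0.068 to -0.023, 4 of 7 with such a p. For Rps6 the chosen probe set was the exception: the other 7 had higher means in Pcyt2+/-, up to 0.080, and the mean of all 8 gave a difference of 0.043. For 9 genes the chosen probe set and the median of all differed in sign. Of the 12 genes with several probe sets among the 17 with a small p, 11 had all of them lower. The 17 were picked by p from these same arrays, and probe sets of a gene can share probes. The shared sign is therefore no independent support for them.

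**Figure D4:**
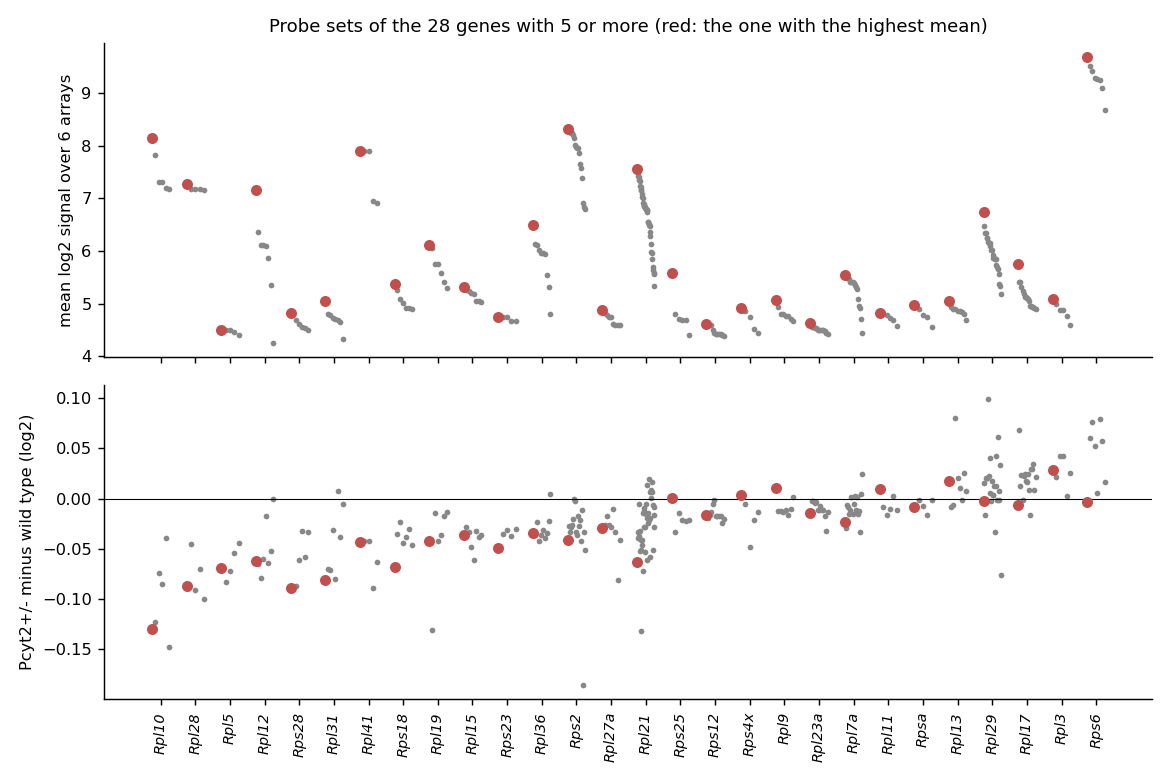
The 28 genes with 5 or more probe sets, ordered by the median difference: mean log2 signal over 6 arrays above, Pcyt2+/- minus wild type (log2) below, with the probe set that stands for the gene in red. Signal within a gene spreads by up to 2.91 (Rpl12), while Rps6 on the far right has its red point at -0.0029 and the other 7 points above 0.

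Other genes of protein synthesis were summarised by list. Fau, which encodes a ubiquitin-like fusion of a small subunit protein, had 5.54 against 5.61, a difference of -0.065, and was the 1 ribosomal gene measured outside the symbol rule. Of 74 mitochondrial ribosomal protein genes, 41 had a lower mean (median -0.0033), and by the unadjusted p 5 were lower and 1 higher. For all genes the shares were 51.7% with a lower mean, 3.44% lower and 1.86% higher by that p, against which this list (55.4% with a lower mean) and those that follow are to be read. Mrpl16 and Mrps18b had the smallest p (-0.061 and -0.084). These genes were dim, 3 of 74 with a mean above 5, and the difference between both kinds of ribosome was not tested. The 1 pseudogene symbol with -ps, Rps19-ps3, had 0.0054.

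Among translation initiation factors 23 of 32 had a lower mean (71.9%, median -0.0085). By the unadjusted p 5 were lower and 0 higher, led by Eif4a2, an mRNA helicase (-0.095), Eif4g2 (-0.068) and Eif4b (-0.049). Of 12 elongation factors 7 had a lower mean (58.3%, median -0.018), and 2 were lower and 0 higher by that p, Eif5a2 (-0.046) and Eef1b2 (-0.048). Other mRNAs with a pyrimidine start had a lower mean in 8 of 11 cases (median -0.022), with 0 lower or higher by that p. Tpt1, the translationally controlled tumour protein, had 8.05 against 8.20, a difference of -0.16 with an SE of 0.10.

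Of 47 genes of ribosome assembly 27 had a lower mean (57.4%, median -0.0034), and 3 were lower and 0 higher by the unadjusted p, among them Nop56, of the ribosomal RNA methylation complex (-0.032), Rrp9 (-0.033) and Nmd3, the export adaptor of the large subunit (-0.032). Of 18 genes of RNA polymerase I and its regulators 10 had a lower mean (55.6%), and 1 was higher by that p, the subunit Polr1c (0.051). In mTORC1 signalling 16 of 32 had a lower mean, and 2 were higher by that p, Deptor, an inhibitor of mTOR (0.066), and Lamtor5, of the lysosomal anchor (0.041), with Pdcd4, an inhibitor of Eif4a, at 0.11 (SE 0.053). The smallest adjusted p in these lists was 0.713, so none of their genes passed limma over all genes.

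As a reference for shifts of the whole array, the ribosomal protein genes gave a different picture according to how they were averaged. The median over all genes lay at 4.41 to 4.42 on each array. The median over the 76 genes was 4.930, 4.902, 4.961 and 4.902 on the Pcyt2+/- arrays and 4.961 and 4.952 on the wild type arrays. Their mean was 5.398, 5.407, 5.349 and 5.388 against 5.406 and 5.434. Replicate 3 thus had the highest median among the Pcyt2+/- arrays and the lowest mean. Centring every array on the median of the ribosomal protein genes moved the median difference of all genes to 0.032, so that 6.68% of all genes had a lower mean in place of 51.7%. Limma then called 99 genes, 61 lower and 38 higher, against 0 as deposited, and the unadjusted p was under 0.05 for 185 lower and 956 higher genes. Of the 99, 22 had a mean of 5 or less. Pcyt2 had a difference of -0.17 with that centring and passed the test.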

How the data were processed

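Snap-frozen liver RNA of 6 mice (100 ng each) was labelled for Affymetrix arrays, per the labels. RMA, named in the submitters' processing notes, gave the deposited log2 values; its version and the build are not given in the sources used here. Of 28996 probe sets, 21218 had 1 gene symbol in the platform annotation, 1881 several and 5897 none here; 21185 matched RefSeq by gene identifier and 0 symbols changed.

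Genotypes were compared over all 6 arrays by limma (version 3.58.1, R 4.3.3; lmFit and eBayes, two-sided, no covariates), with Benjamini-Hochberg adjustment over 18820 genes. Each mouse is 1 sample, per the titles. Summaries used Python 3.11.15 and matplotlib 3.10.9. On simulated data with 4 against 2 arrays and 18820 genes, bright genes were changed by 0.25, 0.50, 1 or 2 (250 of each). Of these, 41.2%, 64.4%, 92.8% and 99.6% were recovered, and 0.035% of unchanged genes were called. The simulated noise was independent between genes, with no shift of a whole array. The largest member difference was 0.19, and dim genes were not changed, so these shares do not describe recovery for the members.

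The members and lists were chosen with earlier results of these data known. Named were 5 lower and 5 higher members by p, the 3 brightest and 3 dimmest, the stalk proteins with Rpsa, genes with a measured copy, Rps6, Rpl5, Rpl11, both genes that are not ribosomal proteins, and up to 3 genes per translation list; marker lists are given by counts and signal. Alternatives varied the scaling (quantile, median or ribosomal centring, the array median subtracted as a floor on the linear scale), the rows (dim genes left out, all rows fitted, rows averaged per gene), the prior, weights per array, a block for the replicate number, and the arrays, each left out once.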

Additional observations from a re-analysis of the deposited data

Results flagged for a closer look

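Among the 76 ribosomal protein genes, Pcyt2 and the median over the members (78 values tested), 7 had 1 of the 4 Pcyt2+/- arrays far from the others, measured as the gap to the nearest array divided by the range; chance alone flags about 1 in 20. Pcyt2+/- replicate 3 was that array in 5 of the 7. It was the lowest for Rpl10 (7.876, with the others at 8.156 to 8.199; ratio 0.867), Rpl28 (6.649 against 7.369 to 7.516; 0.831) and Rps15 (6.426 against 6.681 to 6.727; 0.847). It was the highest for Rpl3 (5.204 against 5.045 to 5.062; 0.890) and Rpl4 (4.995 against 4.875 to 4.896; 0.8293). The others were Rpl23a, with replicate 4 lowest (4.611 against 4.641 to 4.642; 0.968), and Rps21, with replicate 1 highest (4.606 against 4.561 to 4.566; 0.872).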

How the results depend on the processing

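The 0 calls among the ribosomal protein genes held under every setting. Lower members at an unadjusted p under 0.05, 17 as reported, numbered 6 of 60 with a floor subtracted on the linear scale (genes with a mean above 4.6; 5.33% of all genes entered), 6 of 76 without moderation (2.96%), and 1 of 36 in a fit restricted to bright genes (mean above 5), a share below the 8.71% of all genes entered. They numbered 10 and 7 with quantile normalization over all rows and over gene rows (2.87% and 2.61%), 11 with a trended and robust prior (3.28%), and 8 to 15 without 1 array, of which 7 to 13 were among the 17. Higher members numbered 1 with median centring (416 of all 18820 genes). With the quantile normalizations they numbered 2 and 4 (2.40% and 2.67% of all genes), and with the trended prior 1 (1.99%). Without 1 Pcyt2+/- array they numbered 0 to 2, against 281 to 388 of all genes. Members with a lower mean numbered 29 of 36 among bright genes only (62.2% of all genes entered) and 35 of 76 with quantile normalization over gene rows (48.5%). Their median was -0.065, -0.035, 0.0045 and -0.0087 with the linear subtraction, bright genes only, and quantile normalization over gene rows and over all rows.

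The replicate numbers 3 and 4 occur in both groups, and the labels do not say whether equal numbers share a batch. Deviations from the group means correlated at 0.147 (number 3) and 0.0725 (number 4) across genes. For every gene the deviations of the 2 wild type arrays are equal and opposite, so these correlations cannot decide whether equal numbers share anything. With the replicate block, 23 lower members and 1 higher member had an unadjusted p under 0.05, against 702 lower (3.73%) and 293 higher of all genes. By that p 14 of the 36 bright members and 254 of all 792 bright genes were lower. Of all genes 2 were called. Numbers 1 and 2 occur only in Pcyt2+/-, so that fit compares the genotypes through replicates 3 and 4 alone. It holds little information of its own on the spread of a gene, so its p-values rest largely on the variance shared over all genes. Its larger count of lower members cannot be read as a stronger difference.

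Over all genes 3 were called with the linear subtraction, 3 among bright genes only, 9 with the trended prior, 99 with ribosomal centring and 0 to 9 without 1 array. By the unadjusted p, 173 were lower and 72 higher with the linear subtraction (3248 genes), 69 and 19 in the bright fit (792), and 185 and 956 with ribosomal centring. Pcyt2 passed with ribosomal centring (-0.17).

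Among the lists of protein synthesis, medians that moved by more than the spread between arrays were, with the linear subtraction, those of elongation factors (-0.11), initiation factors (-0.10), ribosome assembly (-0.050), mTORC1 signalling (-0.026), other pyrimidine-start mRNAs (-0.0037) and mitochondrial ribosomal proteins (-0.076). Among bright genes only they were elongation factors (-0.13), initiation factors (-0.068) and mitochondrial ribosomal proteins (-0.048). Elongation factors had -0.0079 and -0.0081 with quantile normalization over all rows and gene rows, and initiation factors -0.022 with the replicate block. Without 1 array the medians ran from -0.023 to 0.0066 for elongation factors, -0.0079 to 0.0014 for mTORC1 signalling, -0.0059 to -0.00049 for ribosome assembly and -0.030 to -0.0042 for the pyrimidine-start mRNAs. Of the marker lists, the hepatocyte median (-0.098) was -0.16 with the replicate block, -0.031 without wild type replicate 3 and -0.18 without wild type replicate 4. The stellate median was 0.033 with the linear subtraction, and the B cell median -0.0054 with the block, -0.0066 without wild type replicate 3 and 0.0042 without wild type replicate 4.

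Differences that turned sign were Rps6 (0.0023 with array weights, 0.043 with the mean of its rows, 0.065 and 0.070 with quantile normalization over all rows and gene rows), Rps2 (0.064) and Rplp0 (0.029) with that over gene rows, Rpsa (0.0052 and 0.0057), Rpl7 (0.00065 and 0.0024) and Rps4l (0.0051 and 0.0049) with both. With the replicate block Rpsa (0.0024), Rpl7 (0.0015), Rps4l (0.00049) and Rpl32l (-0.00049) turned, and with the mean of rows Rps4x (-0.017) and Rpl11 (-0.0056). Without 1 array, signs turned within -0.0090 to 0.044 (Rpl3), -0.00024 to 0.059 (Rpl35a), -0.0012 to 0.023 (Rpl39l), -0.021 to 0.0012 (Rpl3l), -0.0075 to 0.00065 (Rpl7), -0.080 to 0.031 (Rpl7l1), -0.27 to 0.16 (Rplp0), -0.054 to 0.064 (Rps19-ps3), -0.0065 to 0.018 (Rps19bp1), -0.075 to 0.0068 (Rps2), -0.035 to 0.024 (Rps4l), -0.023 to 0.030 (Rps4x), -0.031 to 0.026 (Rps6) and -0.026 to 0.0085 (Rpsa); the symbols with -ps with a lower mean numbered 0 to 1. The cause was not tested. Fits that leave out a wild type array rest on 1 wild type array, whose spread is taken to equal that of the other group.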
